A study of Mus musculus with 16 samples.

Results

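Epididymal white fat (eWAT) was set against inguinal white fat (iWAT) in mice that had received vehicle only, to describe which genes tell the 2 depots apart without the drug. The 2 epididymal and 2 inguinal vehicle libraries were 4 of the 16 libraries of a series on sunitinib (Sutent), a drug that blocks several receptor tyrosine kinases. Every library came from total RNA of C57BL/6 mice at 24 weeks of age, and the labels name no genetic change. The series states 8 mice, 4 on sunitinib and 4 on vehicle, with brown fat and liver as the other tissues. Which mouse or mice each library came from is not stated in the labels, so the spread between the 2 libraries of a depot may be technical. The sources used here give neither the diet nor the make-up of the vehicle. Compared genes were the symbols present in both white fat tables with a mean regularized log2 value (rlog) of at least 3 in either depot, which kept 15787 of 20840 shared symbols. SNORA25 stood just inside that minimum at 3.00042 and Bvht just outside it at 2.99941.

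White fat is laid down in several depots that differ in embryonic origin, in neighbouring tissues and in how readily they gain brown-like cells. Epididymal fat is a visceral depot of male mice that lies beside the epididymis and testis and is covered by mesothelium, the thin epithelium that lines the body cavities. Inguinal fat is a subcutaneous depot of the flank and groin, lies close to skin and limb muscle and contains a lymph node. Fat cells and their precursors of each depot keep a pattern of developmental transcription factors, among them Hox genes, that marks where in the body they formed.

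The deposited rlog tables of the 2 depots were normalized apart by the authors, so the 4 vehicle columns were quantile-normalized together, and all levels below are on that log2 scale. The filter, and a minimum of 3 in both depots where used below, took the deposited means. Counts of genes with a mean under 3 took the normalized means, so the 2 sets of counts need not match. Differences are epididymal minus inguinal, each with its standard error (SE, n = 2 libraries per depot). No test was run between the depots, because the tables were made separately and because an exact permutation test of 2 against 2 libraries cannot give a p below 0.333. Rlog values are drawn towards the mean of each gene within its table, most where reads are few, so the SEs are too small and libraries of a depot look alike at low levels. A gene was counted as higher or lower in epididymal fat when its difference was at least 1, which is 2-fold on this scale, and both epididymal libraries lay on the same side of both inguinal libraries. For a gene whose lower depot lies under 3, where few reads stand behind the value, the difference and its SE only describe the values on this scale and are not a fold.

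By that rule 1071 genes (6.78%) were higher and 889 genes (5.63%) were lower in epididymal fat, 12.4% in all, and these are the shares beside which the counts of the lists below stand. The sides are sensitive to scaling: with median centring in place of quantile normalization the counts were 1281 higher and 611 lower, and with the deposited values as they stand they were 1315 and 592. Most genes differed little, and 75.2% lay within 0.5 of no difference. Over all genes the SD of the depot difference was 1.09, against an SD of 0.142 for the difference between the 2 epididymal libraries and 0.213 between the 2 inguinal libraries. In 567 of the 1071 higher genes and 514 of the 889 lower genes the other depot lay under 3. None of the 21 housekeeping genes was counted in either direction, and their median difference was 0.06. The 3 Y-linked genes measured, Eif2s3y, Uty and Kdm5d, were present in all 4 libraries at differences of -0.14, -0.05 and -0.45, the last at -0.18 under median centring. Markers of fat cells stood at like levels in both depots. Adiponectin (Adipoq) was at 16.17 and 16.05 in epididymal fat and 15.81 and 16.05 in inguinal fat. Leptin (Lep) was at 16.44 and 16.44 in epididymal fat and 16.22 and 16.76 in inguinal fat. Quantile normalization gives the same value to the same rank in every library, so likeness near the top of the scale is partly built in.

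**Figure D1:**
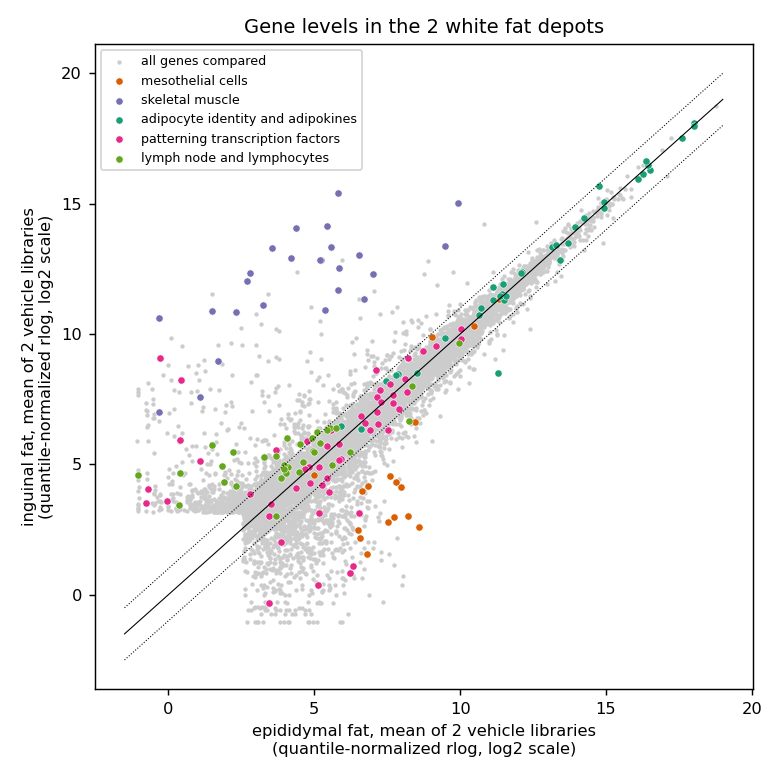
Mean level of each of the 15787 genes in the 2 epididymal libraries (horizontal axis) and the 2 inguinal libraries (vertical axis), both as quantile-normalized rlog on the log2 scale, with 5 lists coloured and dotted lines at a difference of 1 either way. Most fat cell genes lie near the line of equality, skeletal muscle genes lie far above it, and 18 of the 20 mesothelial genes lie below it.

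Developmental transcription factors differed in both directions. Of 53 patterning factors that passed the filter, 10 were higher and 11 were lower in epididymal fat, and the list's median difference was 0.04, beside -0.0019 over all genes. In 8 of the 53 the epididymal mean and in 5 the inguinal mean lay under 3. The 3 furthest below in epididymal fat were Tbx15, Shox2 and Lhx8. Tbx15, a T-box factor of limb and skeletal development known as a subcutaneous fat marker, had -0.28 and -0.28 in the epididymal libraries against 9.40 and 8.75 in the inguinal libraries, a difference of -9.36 ± 0.33. Shox2, a homeobox factor of limb outgrowth, had 0.45 and 0.45 in epididymal fat against 8.25 and 8.23 in inguinal fat, a difference of -7.80 ± 0.01. Lhx8, a LIM homeobox factor used as a marker of brown fat cells, stood at 0.39 and 0.40 in epididymal and 5.82 and 6.04 in inguinal libraries, a difference of -5.53 ± 0.11. Both inguinal libraries were far above both epididymal ones for all 3, and the epididymal values lay near the bottom of the table, whose lowest deposited value was -1.06. In bulk tissue, fewer cells of a type and less RNA per cell cannot be told apart, for these genes and for every gene below. The promoter of Shox2 is shown because Shox2 is one of the clearest inguinal markers here. In the mouse reference GRCm38.p6 it spans chr3:66981722-66982021 on the minus strand, from 250 bases before to 50 bases after the RefSeq start, and the capitals mark its 11 CpG pairs, where the median over 27025 promoters is 7.
Shox2: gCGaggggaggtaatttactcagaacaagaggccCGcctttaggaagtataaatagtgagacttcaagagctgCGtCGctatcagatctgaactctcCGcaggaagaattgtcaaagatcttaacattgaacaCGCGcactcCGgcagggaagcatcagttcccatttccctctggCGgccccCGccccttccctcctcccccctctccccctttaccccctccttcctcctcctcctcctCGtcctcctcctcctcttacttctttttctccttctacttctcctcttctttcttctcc

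Further patterning factors were lower in epididymal fat at more modest inguinal levels. Irx5, an Iroquois homeobox factor, had -0.69 and -0.69 in epididymal fat and 4.06 and 4.07 in inguinal fat. Tbx5, the T-box factor of the forelimb and heart, had -0.78 and -0.78 in epididymal fat and 3.51 and 3.55 in inguinal fat. En1, the engrailed factor of the limb and trunk skin, had 1.10 and 1.06 in epididymal fat and 5.28 and 4.98 in inguinal fat, a difference of -4.04 ± 0.15. All 3 stood under 3 in epididymal fat. Mab21l1, Tbx1, Twist2 and Msx1 were lower too, at differences of -3.61, -1.87, -1.12 and -1.06. Twist2, a basic helix-loop-helix factor of mesenchyme, was above the filter in both depots, with 4.83 and 4.70 in epididymal fat and 5.88 and 5.88 in inguinal fat.

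Of the 10 factors higher in epididymal fat, Wt1, Bnc1 and Gata5 also stand on the list of mesothelial markers described further on. Wt1, the Wilms tumour factor of mesothelium, kidney and gonad, had 6.32 and 6.15 in the epididymal libraries against 0.78 and 0.87 in the inguinal libraries, a difference of 5.41 ± 0.10. Tcf21, a basic helix-loop-helix factor of visceral mesoderm and a marker of visceral fat precursors, had 6.37 and 6.25 in epididymal fat against 1.12 and 1.10 in inguinal fat, a difference of 5.20 ± 0.06. Bnc1, a zinc finger factor of mesothelium and germ cells, had 5.20 and 5.06 in epididymal fat against 0.33 and 0.39 in inguinal fat, a difference of 4.77 ± 0.08. For these 3 the inguinal libraries were under 2 and the epididymal libraries above 5. The other 7 were Gata5, Sox9, Foxc2, Foxf2, Foxp2, Tbx2 and Gata3, at differences of 3.77, 3.39, 2.02, 1.84, 1.59, 1.21 and 1.06. The promoter of Tcf21 is shown as the counterpart of that of Shox2. It lies at chr10:22820094-22820393 on the minus strand of GRCm38.p6, and the capitals mark its 8 CpG pairs.
Tcf21: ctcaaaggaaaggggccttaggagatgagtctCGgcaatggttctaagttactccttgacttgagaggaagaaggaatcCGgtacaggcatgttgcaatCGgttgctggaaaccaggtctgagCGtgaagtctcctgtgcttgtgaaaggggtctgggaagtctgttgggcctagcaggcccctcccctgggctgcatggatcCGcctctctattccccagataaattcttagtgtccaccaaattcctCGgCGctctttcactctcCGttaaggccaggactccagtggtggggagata

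Of 16 genes known from the literature as depot markers, 15 were compared, 2 were higher and 7 were lower in epididymal fat. In 4 of the 15 the epididymal mean and in 2 the inguinal mean lay under 3, so these passed the filter through the other depot alone. The other 9 had a mean of at least 3 in both depots. Beside Tbx15, Shox2, Lhx8 and En1, the 7 lower genes included Hoxc10, Hoxa10 and Hoxc9. The remaining 6 stayed under a difference of 1. Nr2f1, a nuclear receptor known from visceral fat, had 5.87 and 5.83 in epididymal fat and 5.18 and 5.17 in inguinal fat, a difference of 0.68 ± 0.02. Hoxa5 differed by 0.89 ± 0.15, Sfrp2 by 0.71 ± 0.23, Thbd by 0.46 ± 0.12, Gpc4 by 0.26 ± 0.11 and Hoxc8 by 0.17 ± 0.20. Hoxc8 alone of these 6 had overlapping depots. Without the first inguinal library Hoxa5 reached a difference of 1.0 and counted as higher, and without any normalization it reached 1.01.

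**Figure D2:**
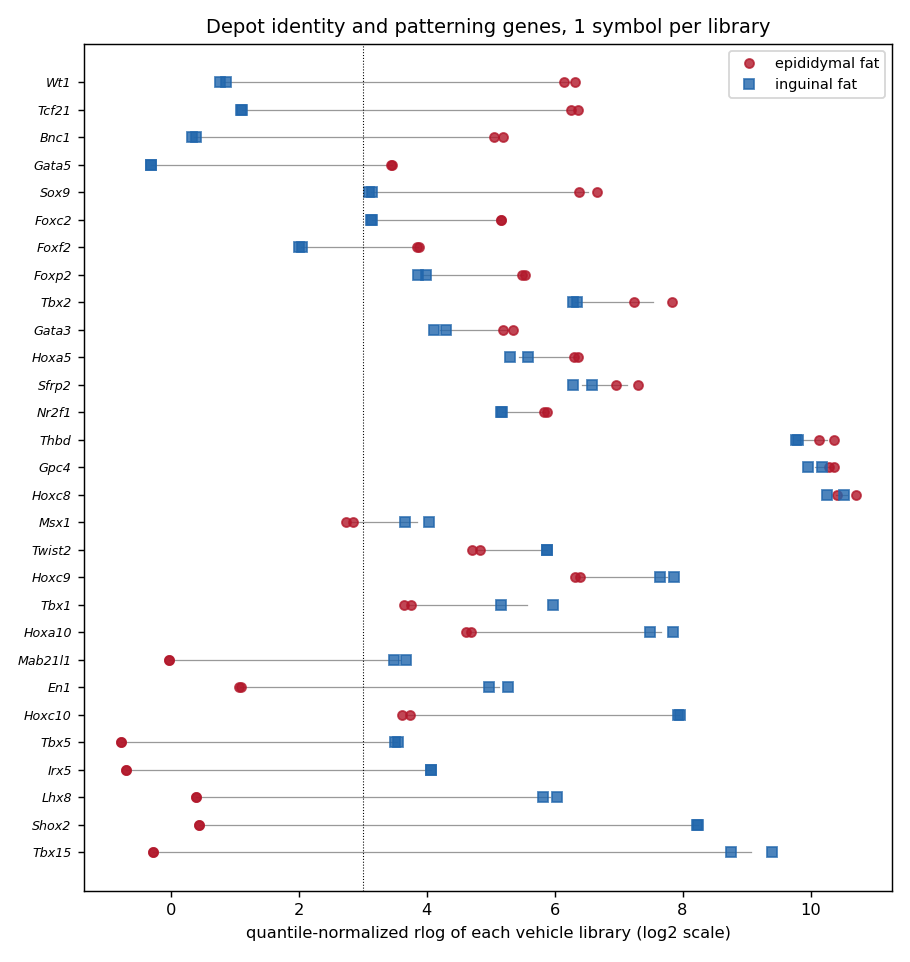
Quantile-normalized rlog (log2 scale) of depot identity and patterning genes in each vehicle library, with red circles for the 2 epididymal and blue squares for the 2 inguinal libraries, a grey line from one depot mean to the other and a dotted line at the filter value of 3. The libraries of a depot lie close together beside the gap between depots for Wt1, Tcf21, Shox2 and Tbx15, and they overlap for Hoxc8.

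The Hox genes, whose order along 4 clusters follows the body axis from head to tail, differed by cluster and by place within a cluster. Of the 39 genes listed 28 passed the filter, of which 5 were higher and 4 were lower in epididymal fat, with a median difference of 0.31 that was 0.20 without the first inguinal library. The 4 lower genes lay towards the posterior end of the A and C clusters. Hoxc10 had 3.62 and 3.75 in epididymal fat against 7.93 and 7.96 in inguinal fat, a difference of -4.26 ± 0.07. Hoxa10 had 4.61 and 4.70 in epididymal fat against 7.49 and 7.85 in inguinal fat, a difference of -3.01 ± 0.18. Hoxa9 had 4.44 and 4.59 in epididymal fat against 6.97 and 7.13 in inguinal fat, a difference of -2.54 ± 0.11. Hoxc9 differed less, with 6.33 and 6.40 in epididymal fat against 7.66 and 7.87 in inguinal fat, a difference of -1.40 ± 0.11. The next gene of the A cluster ran the other way: Hoxa11 had 3.65 and 3.64 in epididymal fat against 0.91 and 1.01 in inguinal fat, a difference of 2.69 ± 0.05.

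Every compared gene of the B cluster was above 0 in epididymal fat, and 3 of the 8 were counted as higher. Hoxb8 had 4.74 and 4.77 in epididymal fat against 2.25 and 2.17 in inguinal fat, a difference of 2.55 ± 0.05. Hoxb9 had 6.21 and 6.62 in epididymal fat against 4.66 and 4.54 in inguinal fat, a difference of 1.82 ± 0.21, and Hoxb6 differed by 1.20 ± 0.12. Hoxb3, Hoxb2 and Hoxb7 differed by 0.88, 0.70 and 0.66, and Hoxb4 and Hoxb5 by 0.39 and 0.29. Under median centring Hoxb3 reached 1.11 and Hoxb2 reached 1.01. In the D cluster Hoxd3 was higher, with 5.47 and 5.58 in epididymal fat against 4.07 and 3.95 in inguinal fat, a difference of 1.52 ± 0.08, while Hoxd8, Hoxd9 and Hoxd10 differed by 0.47, 0.02 and 0.32. Hoxd10 was at 0.82 under median centring and 0.85 without normalization, and Hoxd8 at 0.28 without the second inguinal library.

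The other genes of the A and C clusters were not counted. Hoxa5 came nearest at 0.89, and was counted as higher under the changes given above. Hoxa2 and Hoxa3 differed by 0.04 and -0.08, Hoxa4 by 0.53 (0.80 without normalization), and Hoxa6 and Hoxa7 by -0.18 and -0.32. Hoxc4 differed by 0.76, and Hoxc5 and Hoxc6 by -0.09 and -0.26. Hoxa13, Hoxd11, Hoxd12 and Hoxd13 were listed in the epididymal table alone, at deposited rlog values of 3.53 and 3.55 for Hoxa13 and 2.94 and 2.94 for Hoxd13, so no difference is given. Hoxc11, Hoxd1 and Hoxd4 stayed under the filter in both depots. Hox clusters are dense with antisense and overlapping transcripts and the sources used here do not give the use of strand in counting, so each value may include reads of a neighbour.

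**Figure D3:**
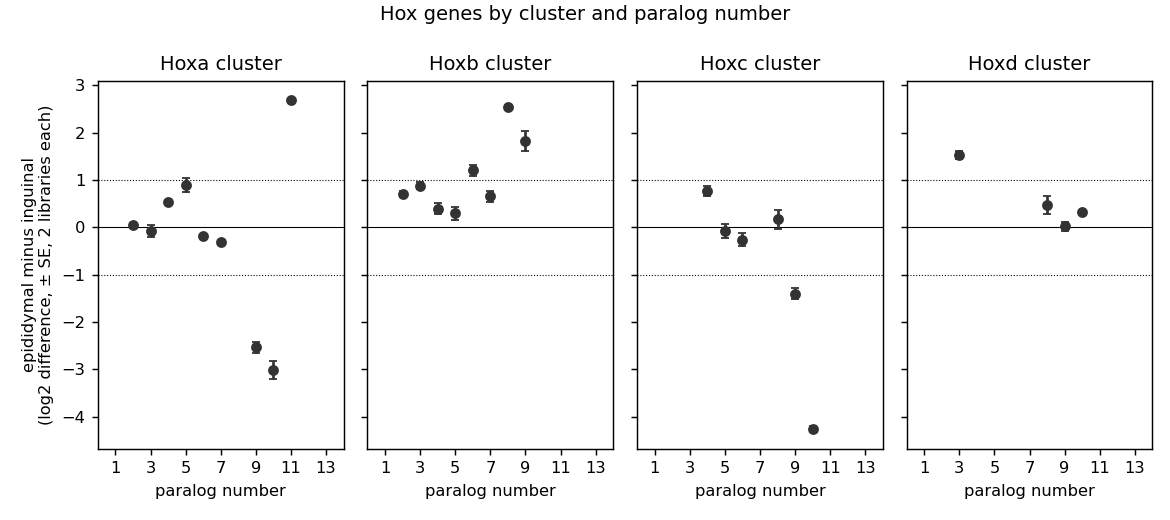
Epididymal minus inguinal difference (log2 scale, points with SE over 2 libraries per depot) of Hox genes compared, by cluster and by paralog number within the cluster, with dotted lines at 1 and -1. Hoxa9, Hoxa10, Hoxc9 and Hoxc10 lie below -1, and every Hoxb gene lies above 0.

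Most mesothelial markers compared were higher in epididymal fat. Of 20 mesothelial markers compared, 16 were higher in epididymal fat and none was lower, with a median difference of 3.80. In 9 of the 20 the inguinal mean lay under 3 after normalization. By the deposited means 10 genes had at least 3 in both depots, with a median difference of 2.28, and the rest passed the filter through 1 depot alone. Upk3b, a uroplakin of the mesothelial surface, had 8.81 and 8.35 in the epididymal libraries against 2.58 and 2.61 in the inguinal libraries, a difference of 5.98 ± 0.23. Upk1b, another uroplakin, had 6.87 and 6.77 in epididymal fat against 1.57 and 1.56 in inguinal fat, a difference of 5.25 ± 0.05. Msln, the mesothelial surface protein mesothelin, had 7.63 and 7.44 in epididymal fat against 2.82 and 2.78 in inguinal fat. The simple epithelial keratins Krt8 and Krt18 were higher too, with Krt8 at 7.54 and 8.89 in epididymal fat and 2.93 and 3.09 in inguinal fat. The second epididymal library was above the first for both keratins. Over the 20 mesothelial markers, by contrast, the median of the second minus the first epididymal library was -0.09. The 4 not counted were Igfbp6, Tm4sf5, Efemp1 and Cldn15, at differences of 0.20, 0.39, -0.02 and -0.86. The promoter of Upk3b is shown because Upk3b differed most on this list. It lies at chr5:136038246-136038545 on the plus strand of GRCm38.p6 and holds 2 CpG pairs, marked by capitals.
Upk3b: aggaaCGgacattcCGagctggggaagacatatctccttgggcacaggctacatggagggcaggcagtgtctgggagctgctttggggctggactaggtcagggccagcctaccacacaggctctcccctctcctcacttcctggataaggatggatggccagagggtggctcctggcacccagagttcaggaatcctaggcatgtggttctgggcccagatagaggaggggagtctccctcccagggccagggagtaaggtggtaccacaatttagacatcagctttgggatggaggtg

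Most compared genes of a further epithelial list were higher as well. The list shares Krt7, Krt8 and Krt18 with the mesothelial list, so the counts are not separate. On the list for mammary and surface epithelium, written for what an inguinal dissection could carry over, 14 of 18 genes compared were higher in epididymal fat and 1 was lower, with a median difference of 3.46. The summed level of the list, on the log2 scale, was 10.49 and 11.09 in epididymal fat and 8.78 and 8.78 in inguinal fat. Cldn7 and Cldn4, claudins of epithelial tight junctions, differed by 5.97 ± 0.14 and 5.87 ± 0.02. Dsp, the desmosome protein desmoplakin, had 6.73 and 7.87 in epididymal fat against 1.63 and 1.67 in inguinal fat, a difference of 5.65 ± 0.57. Wfdc2, a secreted protease inhibitor of the epididymis and other ducts, had 5.77 and 6.12 in epididymal fat against 0.66 and 0.66 in inguinal fat. The basal keratin Krt5 had 5.12 and 5.03 in epididymal fat against 1.16 and 1.28 in inguinal fat, and its partner Krt14 had 3.81 and 3.71 in epididymal fat against 1.45 and 1.53 in inguinal fat. The 1 lower gene was Trp63, the p63 factor of basal epithelium, at -1.11 ± 0.10. In 10 of the 18 genes the inguinal mean lay under 3, and with a minimum of 3 in both depots the median of the genes left turned to -0.22.

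The 15 genes furthest above in epididymal fat, by the size of the difference alone, all had an inguinal mean under 3, so each passed the filter through epididymal fat alone. Cdh16, a cadherin of kidney and duct epithelium, had 6.60 and 8.12 in epididymal fat against -0.28 and -0.25 in inguinal fat, a difference of 7.62 ± 0.76. Lrp2, the endocytic receptor megalin, had 7.25 and 8.81 in epididymal fat against 0.76 and 0.72 in inguinal fat, a difference of 7.30 ± 0.78. Mmp7, a matrix protease of glandular epithelium, had 6.76 and 8.74 in epididymal fat against 1.14 and 1.12 in inguinal fat, a difference of 6.62 ± 0.99. For these 3, and for Dcdc2a, Dao, Cuzd1 and Cldn2, the second epididymal library was more than 1 above the first, while both inguinal libraries were under 2. The list also held Greb1, Slc44a4, Tmem212, Cldn7, Cldn4 and Upk3b, at differences from 5.87 to 6.98. Defb42, a beta-defensin, and Prm2, a protamine that packs sperm DNA, completed the 15 at 6.00 and 5.95.

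Genes of the epididymal duct and testis were measured in epididymal fat at low to middle levels. Of 29 such genes listed, 11 stood in the epididymal table alone, 4 were under the filter and 5 were compared, of which 3 were higher and 1 was lower. In 3 of the 5 the inguinal mean and in 1 the epididymal mean lay under 3, and 1 gene had at least 3 in both depots. Crisp1, which the epididymal lining secretes onto sperm, had 6.20 and 5.94 in epididymal fat against 1.20 and 1.19 in inguinal fat, a difference of 4.88 ± 0.13. Tnp1, a transition protein of maturing sperm, had 5.15 and 5.03 in epididymal fat against -0.31 and -0.31 in inguinal fat, and Prm2 had 5.71 and 5.56 in epididymal fat against -0.31 and -0.31 in inguinal fat. The 1 lower gene, Insl3, a hormone of Leydig cells, had 2.16 and 2.17 in epididymal fat and 3.43 and 3.51 in inguinal fat, a difference of -1.31 that shrank to -0.60 under median centring. Over all genes 0.925% had the second epididymal library above the first by over 0.5, against 8.78% of the genes counted as higher. The duct and testis genes did not share that direction. Over the 5 compared, the median of the second minus the first epididymal library was -0.12. The part of carried-over duct tissue in the epithelial differences was not tested.

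Skeletal muscle genes had the list median furthest on the inguinal side. All 25 muscle genes compared were lower in epididymal fat, with a median difference of -7.65 and a range from -10.95 to -3.90. In 8 of the 25 the epididymal mean lay under 3. With a minimum of 3 in both depots the median of the 19 genes left was -7.62. Their summed level, on the log2 scale, was 11.22 and 11.34 in epididymal fat and 18.41 and 16.99 in inguinal fat. Ampd1, the AMP deaminase of muscle, had -0.31 and -0.31 in the epididymal libraries against 11.17 and 10.10 in the inguinal libraries, a difference of -10.95 ± 0.53. Ttn, the giant sarcomere protein titin, had 3.52 and 3.60 in epididymal fat against 14.03 and 12.61 in inguinal fat, a difference of -9.76 ± 0.71. Myh4, the fast myosin heavy chain of type IIb fibres, had 5.20 and 6.44 in epididymal fat against 16.38 and 14.45 in inguinal fat, a difference of -9.59 ± 1.15. Myh1 and Myh2, its neighbours for the other fast fibre types, differed by -9.53 ± 0.36 and -9.32 ± 0.45; the 3 genes are close copies, so reads may be shared among them. The slow myosin Myh7 had -0.31 and -0.31 in epididymal fat against 6.53 and 7.50 in inguinal fat, where its second library was the higher, unlike that of the fast myosins.

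Of the 15 genes furthest below in epididymal fat, 7 were on the muscle list and Tbx15 was the single patterning factor. In 12 of the 15 the epididymal mean lay under 3. Mylk4, a myosin kinase, and Trim63, a ubiquitin ligase of wasting muscle, differed by -10.04 and -9.73. Lmod2 and Mypn, proteins of the sarcomere, differed by -8.83 and -8.82, and Ckmt2, Tmem233 and the noncoding transcript Nctc1 by -9.05, -8.93 and -8.80. The first inguinal library was above the second by a median of 1.31 over the 25 muscle genes. Over all genes 2.4% had the first inguinal library above the second by over 0.5, against 27.8% of the genes counted as lower. The part of muscle carried over with inguinal fat in these differences was not tested. The promoter of Myh4 is shown as an example of this group. It lies at chr11:67237562-67237861 on the plus strand of GRCm38.p6, holds 1 CpG pair, and the capitals mark matches, on either strand, to the letters TATAAA and to the binding motif of MEF2, a muscle transcription factor. It has 3 matches to TATAAA, of which 1 lies inside the single MEF2 match; 14.2% of 27025 promoters hold TATAAA and 3.26% hold the MEF2 motif.
Myh4: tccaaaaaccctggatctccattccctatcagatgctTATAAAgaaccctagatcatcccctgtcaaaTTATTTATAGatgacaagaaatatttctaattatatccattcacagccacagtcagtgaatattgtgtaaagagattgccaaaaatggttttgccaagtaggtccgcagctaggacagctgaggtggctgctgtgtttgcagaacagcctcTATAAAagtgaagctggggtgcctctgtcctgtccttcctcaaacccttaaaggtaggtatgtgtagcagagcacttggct

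Of 33 genes of lymph nodes and lymphocytes, 15 (45.5%) were lower in epididymal fat, 1 was higher and 17 were not counted, with a median difference of -0.86. In 8 of the 33 the epididymal mean lay under 3. With a minimum of 3 in both depots the median of the 24 genes left was -0.63. The list's summed level hardly differed, at 11.17 and 11.16 in epididymal fat and 11.15 and 11.36 in inguinal fat. Glycam1, a ligand for lymphocyte homing made by lymph node vessels, had -1.02 and -1.02 in epididymal fat against 4.57 and 4.60 in inguinal fat, a difference of -5.61 ± 0.01. Madcam1, another homing ligand, had 0.38 and 0.38 in epididymal fat against 3.38 and 3.47 in inguinal fat. Pax5, the B cell master factor, had 0.39 and 0.39 in epididymal fat against 4.43 and 4.88 in inguinal fat, a difference of -4.26 ± 0.23. The B cell genes Fcer2a, Cr2 and Tnfrsf13c differed by -4.26 ± 0.68, -3.25 ± 0.49 and -3.10 ± 0.31, with the second inguinal library above the first in each. Il7r, the interleukin-7 receptor chain, was the 1 higher gene, with 8.24 and 8.23 in epididymal fat against 6.97 and 6.39 in inguinal fat.

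Of 19 peripheral nerve genes compared, 9 (47.4%) were lower and 2 were higher in epididymal fat, with a median difference of -0.77. The median was -0.38 without the first and -1.16 without the second inguinal library, -0.23 for the 13 genes with a mean of at least 3 in both depots and -0.16 for the 13 genes with a mean of at least 5 in either depot. Sox10, the transcription factor of Schwann cells, had 1.13 and 1.13 in epididymal fat against 5.03 and 4.63 in inguinal fat, a difference of -3.70 ± 0.20. Cdh19, Prx and Gfra3 differed by -3.44 ± 0.06, -2.68 ± 0.75 and -2.36 ± 0.06, and Prx, a protein of myelinating Schwann cells, had 4.82 and 4.87 in epididymal fat against 8.27 and 6.77 in inguinal fat. Gfra3 was at -1.43 under median centring and -1.40 without normalization. The 2 higher genes were Gjb1, a gap junction protein that other epithelia share, at 1.84, and Fabp7 at 1.13.

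**Figure D4:**
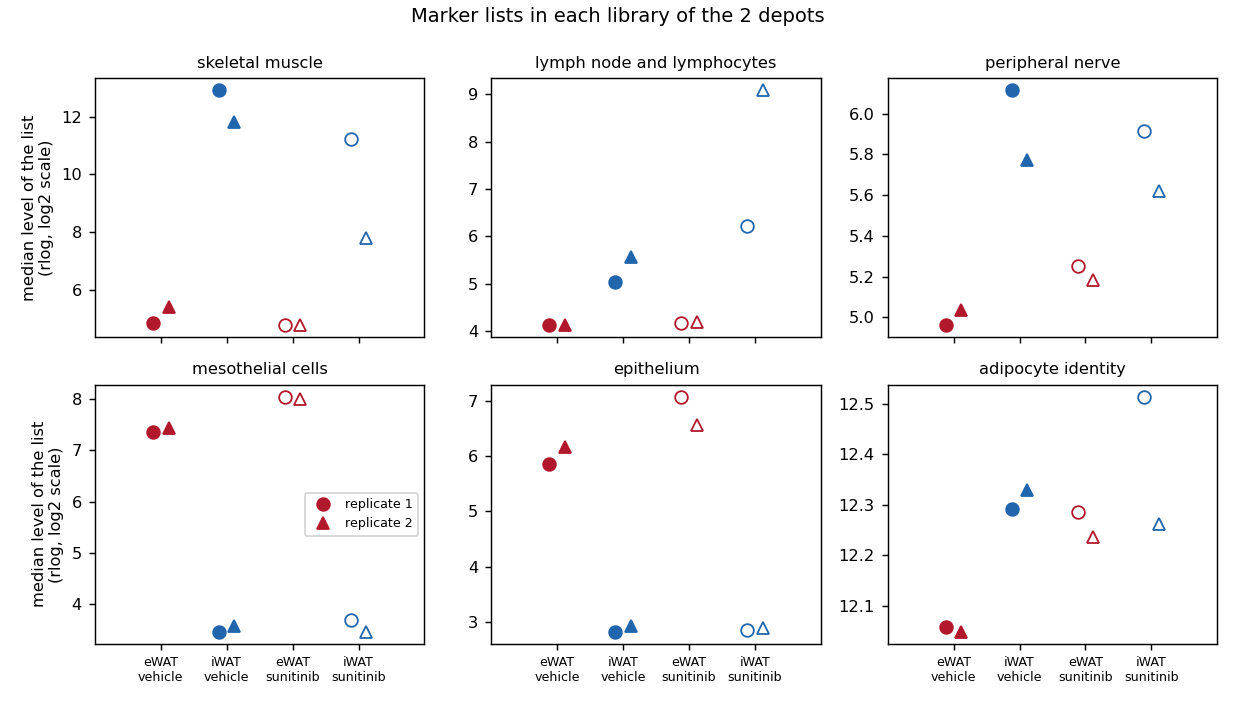
Median level (rlog on the log2 scale, quantile-normalized over 8 libraries) of 6 lists in each library, with red for epididymal and blue for inguinal fat, filled symbols for vehicle, open symbols for sunitinib, circles for replicate 1 and triangles for replicate 2; each panel has its own vertical axis, which does not start at 0. Muscle medians are 4.84 and 5.41 in epididymal and 12.93 and 11.82 in inguinal vehicle libraries, and the lymph node median reaches 9.09 in the second inguinal sunitinib library.

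Of 36 genes of fat cell identity and adipokines, 1 (2.78%) was higher in epididymal fat and none was lower, 28 lay within 0.5, and the median difference was -0.12. The 1 higher gene was Agt, which encodes angiotensinogen, with 11.31 and 11.29 in epididymal fat against 8.92 and 8.11 in inguinal fat, a difference of 2.79 ± 0.40. The next in size were Cfd, the fat-made complement protease adipsin, at -0.93 ± 0.13, and Apln, the peptide apelin, at -0.75 ± 0.18, neither of which was counted. Without the first inguinal library Cfd reached -1.0007 and was counted as lower. Fat cell regulator Pparg had 11.44 and 11.28 in epididymal fat and 11.44 and 11.49 in inguinal fat. The fatty acid carrier Fabp4 had 17.97 and 18.08 in epididymal fat and 17.97 and 17.97 in inguinal fat. Fabp4 lay near the top of the scale, where quantile normalization partly builds in such likeness. The list's median difference was -0.09 under median centring and -0.06 without normalization.

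Of 30 lipogenesis genes 2 (6.67%) were higher in epididymal fat and none was lower, with a median difference of 0.16. Fads2, a desaturase of polyunsaturated fatty acids, had 8.08 and 8.60 in epididymal fat against 6.72 and 6.47 in inguinal fat, a difference of 1.74 ± 0.29. Mogat2, an enzyme of triglyceride assembly, differed by 1.07 ± 0.18, which fell under the limit at 0.97 without the first epididymal library and at 0.92 without the first inguinal library. Elovl3, a fatty acid elongase, differed by 0.91 ± 0.24 and passed 1 under median centring at 1.18. Of 24 genes of lipolysis and adrenergic signalling 2 were higher and 2 were lower in epididymal fat, 16.7% in all beside 12.4% over all genes. In 1 of the 24 the epididymal mean and in 2 the inguinal mean lay under 3. Of the 4 genes counted, 3 were alpha-2 adrenergic receptors, which restrain lipolysis. Adra2b had 3.94 and 4.07 in epididymal fat against 2.19 and 2.18 in inguinal fat. Adra2c had 4.21 and 4.31 in epididymal fat against 2.70 and 2.96 in inguinal fat. Both had an inguinal mean under 3, where the difference is not a fold. Adra2a ran the other way at -1.14 ± 0.06. It was at -0.71 under median centring and -0.68 without normalization, and was counted under neither. Pde4d, a phosphodiesterase that degrades cyclic AMP, was the other lower gene, with 8.17 and 8.13 in epididymal fat against 10.16 and 9.87 in inguinal fat.

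Genes of oxidative phosphorylation lay slightly on the inguinal side. Of 34 compared, 31 were below 0, 2 (5.88%) were counted as lower and none was higher, beside 5.63% lower over all genes. The median difference was -0.23 and stayed between -0.26 and -0.19 when 1 library was left out. The 2 lower genes were Cox8b, with 7.35 and 7.30 in epididymal fat against 8.99 and 8.79 in inguinal fat, and Cox7a1, with 6.97 and 6.82 in epididymal fat against 8.39 and 7.94 in inguinal fat, subunits of cytochrome oxidase that brown fat and muscle share. Slc25a4, the ADP/ATP carrier of muscle and heart, differed by -0.82 ± 0.13. Of 21 genes of fatty acid oxidation 1 was lower and 1 was higher, 9.52% in all beside 12.4% over all genes. Pdk4, a brake on glucose oxidation, differed by -1.25 ± 0.37 and by -0.90 without the first inguinal library. Ucp2, a mitochondrial carrier abundant in macrophages, differed by 1.02 ± 0.18, by 0.91 without the second epididymal library and by 0.90 without the second inguinal library. Ucp3, the muscle relative of Ucp1, was at -0.92 ± 0.33; it counted as lower without the first epididymal library, at -1.05, and without the second inguinal library, at -1.22. Skeletal muscle markers were higher in the same inguinal libraries, and their part in these mitochondrial differences was not tested.

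The list of beige and brown fat cells was mixed. Of 32 genes, 9 were lower and 3 were higher in epididymal fat, with a median difference of -0.06. Prdm16, the transcriptional co-regulator of brown and beige fat, had 3.42 and 3.44 in epididymal fat against 5.79 and 5.81 in inguinal fat, a difference of -2.37 ± 0.02. Ppargc1a, the co-activator of mitochondrial genes, had 6.25 and 6.33 in epididymal fat and 7.25 and 7.36 in inguinal fat. Tmem26, a surface marker of beige cells, differed by -1.67 ± 0.15. Several of the lower genes are also made by muscle, among them Ckmt2, the mitochondrial creatine kinase, at -9.05 ± 0.24 and Fabp3, the fatty acid carrier of heart and muscle, at -2.97 ± 0.09. The 3 higher genes were Cited1, with 5.09 and 4.87 in epididymal fat against 2.51 and 2.58 in inguinal fat, Slc27a2, at 2.36 ± 0.30, and Ckmt1, at 1.83 ± 0.01. Ucp1, the uncoupling protein that defines thermogenic fat, was not counted, with 5.87 and 5.74 in epididymal fat and 5.17 and 4.82 in inguinal fat, a difference of 0.81 ± 0.19 towards epididymal fat.

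Of 29 macrophage genes compared, 12 (41.4%) were higher in epididymal fat, none was lower and 17 were not counted, beside 6.78% higher over all genes; 25 were above 0, and the median difference was 0.80. Gpnmb, a membrane glycoprotein of lipid-laden macrophages, had 12.38 and 12.40 in epididymal fat against 10.71 and 9.68 in inguinal fat, a difference of 2.20 ± 0.52. Trem2, a lipid receptor of such macrophages, had 10.20 and 10.40 in epididymal fat against 8.47 and 7.76 in inguinal fat, a difference of 2.19 ± 0.37. Cd68, a lysosomal marker of macrophages, had 11.20 and 11.35 in epididymal fat against 10.23 and 9.66 in inguinal fat, and the first inguinal library was above the second for all 3. Ms4a7, Ctss and Mpeg1 differed by 1.39 ± 0.06, 1.33 ± 0.29 and 1.33 ± 0.29. Over all genes, the difference nearest to the limit was that of Lyz2 among those counted, at 1.00005, and that of Mxd3 among those not counted, at -0.999812.

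Of 26 genes of complement and the acute phase, secreted proteins of defence, 9 (34.6%) were higher and 1 was lower in epididymal fat, with a median difference of 0.61. Lcn2, the iron-binding protein lipocalin-2, had 8.34 and 9.72 in epididymal fat against 5.84 and 5.92 in inguinal fat, a difference of 3.15 ± 0.69. C3, the central complement protein, had 15.02 and 14.78 in epididymal fat against 13.72 and 13.29 in inguinal fat, a difference of 1.40 ± 0.24. Orm2 and Saa1, acute phase proteins, differed by 1.58 ± 0.21 and 1.41 ± 0.02; both have close copies in the genome, so reads may be shared among them. Tnf, the inflammatory cytokine, was the 1 lower gene, with 2.43 and 2.47 in epididymal fat against 4.36 and 4.20 in inguinal fat, a difference of -1.83 ± 0.08 that was -1.22 under median centring.

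Blood vessel genes lay slightly on the inguinal side without any single gene being counted. Of 28 blood endothelial genes 26 were below 0, with a median difference of -0.35 that ran from -0.52 to -0.19 when 1 library was left out, the last without the first epididymal library. Pecam1, the junction protein CD31, had 10.39 and 10.94 in epididymal fat against 11.27 and 11.19 in inguinal fat, and the second epididymal library was nearer to the inguinal ones. Ackr1, a chemokine receptor of venules, differed by -0.94 ± 0.06, and Aplnr, the apelin receptor, by -0.53 ± 0.27. Without the first epididymal library Pecam1 was at -0.29 and Aplnr at -0.27. Of 9 lymphatic endothelial genes 4 were higher in epididymal fat and none was lower, with a median of 0.86. Mmrn1, a multimerin of lymphatic vessels, had 7.05 and 7.97 in epididymal fat against 4.80 and 5.12 in inguinal fat. Pdpn, podoplanin, which mesothelium also makes, differed by 1.33 ± 0.13. Vegfc, the lymphatic growth factor, differed by 1.17 ± 0.25 and Stab1, a scavenger receptor that macrophages also make, by 1.06 ± 0.19; without the second epididymal library these 2 were at 0.96 and 0.94 and were not counted, and Stab1 was at 0.92 without the second inguinal library.

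Of 20 mural and smooth muscle genes 3 were higher and 2 were lower in epididymal fat, with a median difference of -0.02. Myocd, the co-activator of smooth muscle genes, had 3.62 and 3.58 in epididymal fat against 0.25 and 0.28 in inguinal fat. Cnn1 and Actg2, proteins of visceral smooth muscle such as that of ducts and gut, differed by 2.31 ± 0.47 and 2.28 ± 0.34. Des, the filament desmin of all muscle, was lower at -2.67 ± 0.51, and Abcc9, a pericyte channel subunit that skeletal muscle also makes, at -1.5 ± 0.41. Of 27 hypoxia and angiogenic genes 1 was higher, Vegfc, and 1 was lower, 7.41% in all beside 12.4% over all genes. The lower gene was Angpt1, the ligand that steadies vessels, with 5.57 and 5.75 in epididymal fat against 6.87 and 7.18 in inguinal fat.

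Of 51 extracellular matrix genes 10 (19.6%) were higher in epididymal fat and 1 (1.96%) was lower, beside 6.78% and 5.63% over all genes, with a median difference of 0.30. Mmp12, the elastase of macrophages, had 11.53 and 11.43 in epididymal fat against 9.76 and 9.03 in inguinal fat, a difference of 2.09 ± 0.37. Mfap4, a microfibril protein, and Col4a5, a basement membrane collagen, differed by 1.95 ± 0.23 and 1.93 ± 0.20, and Chad, the cartilage protein chondroadherin, by 1.89 ± 0.06. Spp1, osteopontin, had 7.99 and 8.22 in epididymal fat against 6.98 and 5.55 in inguinal fat, a difference of 1.85 ± 0.72 that was 1.13 without the second inguinal library. Mmp3, the stromelysin of fibroblasts, was the 1 lower gene, with 6.92 and 7.03 in epididymal fat against 9.76 and 9.70 in inguinal fat, a difference of -2.75 ± 0.06. Among 37 genes of fat precursors and fibroblasts 1 was higher and 2 were lower, 8.11% in all beside 12.4% over all genes. Gpc3, a heparan sulfate proteoglycan, differed by 1.47 ± 0.29 and Wnt2 by -1.53 ± 0.02; Pi16, a marker of early precursors, differed by -1.12 ± 0.34 and was at -0.79 without the first inguinal library.

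**Figure D5:**
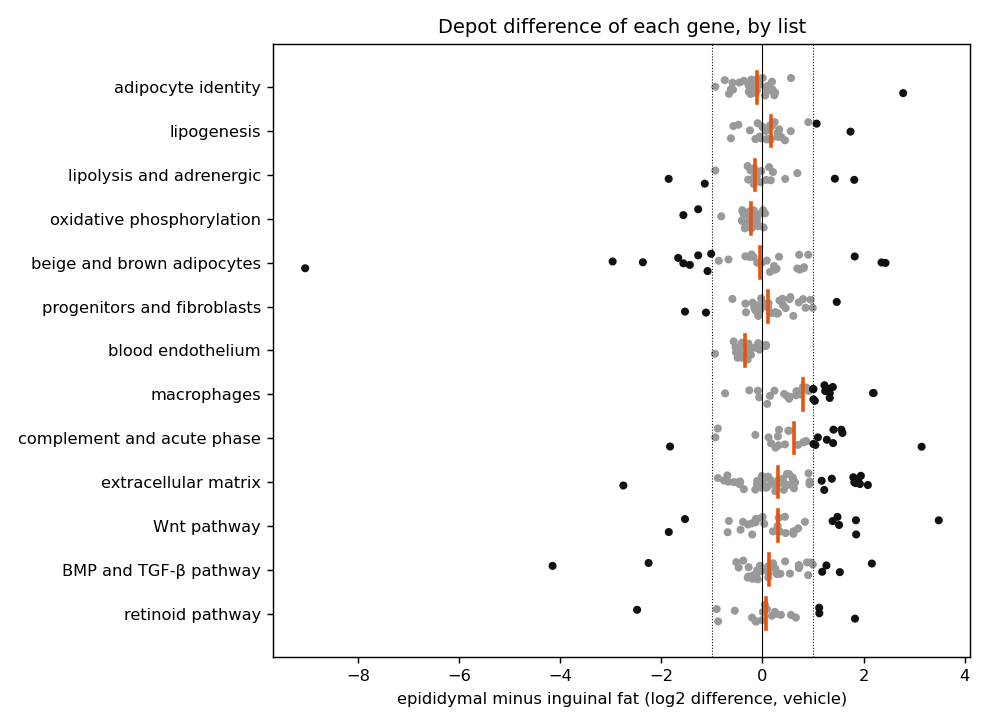
Epididymal minus inguinal difference (log2 scale) of each gene on 13 lists, with genes counted as higher or lower in black, the others in grey, the list's median as an orange bar and dotted lines at 1 and -1. The medians of macrophages (0.80) and of complement and acute phase (0.61) lie above 0.5, and those of the fat cell, lipid and mitochondrial lists lie within 0.3 of 0.

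Of 32 genes of the Wnt pathway 6 were higher and 2 were lower in epididymal fat, with a median difference of 0.30. Every gene counted encodes a secreted ligand, enhancer or inhibitor. Rspo1 and Rspo3, secreted enhancers of Wnt signals, were higher. Rspo1 had 7.75 and 7.88 in epididymal fat against 4.44 and 4.21 in inguinal fat, a difference of 3.49 ± 0.13. Rspo1 also stands on the list of mesothelial markers, so the counts of the lists are not separate. Rspo3 differed by 1.85 ± 0.04. Wnt5b, a ligand, and Sfrp1, a secreted Wnt antagonist, differed by 1.52 ± 0.15 and 1.85 ± 0.41. The lower genes were Wnt2, a ligand, and Dkk2, a secreted modulator of Wnt receptors, with 3.27 and 3.27 in epididymal fat against 5.48 and 4.77 in inguinal fat.

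In the BMP and TGF-beta pathway 4 of 39 genes were higher and 2 were lower, 15.4% in all beside 12.4% over all genes. The median difference was 0.12. Nog, a secreted BMP antagonist, differed by 1.18 ± 0.23 and was at 0.98 without the second inguinal library. Bmpr1b, a receptor, and Gdf15, a stress-linked ligand, differed by 1.53 ± 0.08 and 1.27 ± 0.04. Sostdc1, a further secreted antagonist, went the other way with -0.28 and -0.28 in epididymal fat against 3.94 and 3.80 in inguinal fat. Mstn, the muscle growth inhibitor myostatin, had 4.28 and 4.31 in epididymal fat against 6.83 and 6.27 in inguinal fat, a difference of -2.25 ± 0.28.

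Of 20 retinoid genes compared 3 were higher and 1 was lower in epididymal fat, 20% in all beside 12.4% over all genes, with a median of 0.07. Aldh1a2, an enzyme that makes retinoic acid and that mesothelium expresses, had 8.43 and 8.49 in epididymal fat against 6.76 and 6.49 in inguinal fat, a difference of 1.83 ± 0.14. Aldh1a3, its relative, differed by 1.12 ± 0.24 and by 0.88 without the second epididymal library. Stra6, the receptor that takes up retinol, was lower with 0.84 and 0.83 in epididymal fat against 3.29 and 3.35 in inguinal fat, a difference of -2.48 ± 0.03 that was -1.53 under median centring and -1.5 without normalization.

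Of 26 genes of the FGF and IGF pathways 2 were higher and 1 was lower, 11.5% in all beside 12.4% over all genes. The median difference was 0.07. Both higher genes had an inguinal mean under 3, where the difference is not a fold. Igfbp2, a binding protein for insulin-like growth factors, had 6.54 and 6.96 in epididymal fat against 2.85 and 2.92 in inguinal fat, a difference of 3.86 ± 0.22. Fgfr4, a receptor for fibroblast growth factors, had 5.92 and 6.55 in epididymal fat against 2.77 and 2.66 in inguinal fat, a difference of 3.52 ± 0.32. Igfbp3, a further binding protein, was lower by -1.05 ± 0.14 and was at -0.91 without the first epididymal and -0.99 without the first inguinal library. Among 14 steroid genes 1 was higher and 1 was lower, 14.3% in all. Cyp7b1, an oxysterol hydroxylase, was higher at 1.16 ± 0.06. Akr1c18, which breaks down progesterone, was lower with 3.29 and 3.29 in epididymal fat against 5.88 and 5.96 in inguinal fat.

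Some marker genes stood in 1 table alone and were therefore not compared. The epididymal table held 2107 named symbols of its own, of which 201 had a vehicle mean of at least 3, and the inguinal table held 1242, of which 22 did. Pax8, a factor of kidney and duct epithelium, was in the epididymal table alone at deposited rlog values of 6.25 and 6.87. Muc16, a mesothelial mucin, stood there at 4.45 and 4.40, Adam7, a membrane protein of the epididymis, at 4.73 and 4.76, and Crabp1, a carrier of retinoic acid, at 5.11 and 5.42. In the inguinal table alone Zic1, a zinc finger factor used as a brown fat marker, was at 1.65 and 1.63, and the milk protein gene Csn3 was at 2.52 and 2.98.

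The same 2 depots of mice on sunitinib gave the comparison again in libraries that were not compared above but share each depot's deposited table. Rlog values are drawn towards the mean of each gene over the vehicle and sunitinib libraries of that table. For genes with few reads in a depot, agreement between the treatments is therefore partly built in, and the shares below are not an independent replication. Of the 1071 genes higher in epididymal fat of vehicle mice, 979 (91.4%) were also counted as higher there, out of 1278 (8.05% of 15875 genes), and none was counted the opposite way. Of the 889 lower genes, 730 (82.1%) were also counted as lower, out of 1173 (7.39%), 1 was counted the opposite way and 14 were under the filter. Transcripts of the other tissues stood at other levels in these mice, as the plot of lists by library shows. Muscle medians were 4.75 and 4.78 in epididymal fat and 11.23 and 7.78 in inguinal fat of sunitinib mice, and lymph node medians were 4.16 and 4.18 in epididymal fat and 6.22 and 9.09 in inguinal fat. Tbx15 had -0.29 and -0.28 in the epididymal and 8.51 and 7.79 in the inguinal libraries of sunitinib mice, a difference of -8.43. Shox2 had 0.54 and 0.54 in epididymal and 8.12 and 7.63 in inguinal sunitinib libraries, and Hoxc10 and Wt1 differed by -3.90 and 5.61.

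List medians were not the same in the 2 treatments. The median depot difference of mesothelial genes was 4.33 in sunitinib mice and 3.80 in vehicle mice, and that of muscle genes was -4.70 in sunitinib mice and -7.65 in vehicle mice. For lymph node genes the median was -3.32 in sunitinib mice and -0.86 in vehicle mice, with 30 genes lower in epididymal fat of sunitinib mice and 15 in that of vehicle mice. For macrophage genes it was 0.50 in sunitinib mice and 0.80 in vehicle mice, with 6 genes higher in sunitinib mice and 12 in vehicle mice. Only 2 macrophage genes were counted the same way in both treatments, and 1 was counted as lower in sunitinib mice. Among named genes Fabp3 differed by -0.35 and Cox7a1 by -0.31 in sunitinib mice, and neither was counted there. Prdm16 was still lower in epididymal fat of sunitinib mice, at -2.18. Mpeg1 and Des, at -0.06 and 0.07 in sunitinib mice, had the opposite sign from vehicle mice. Whether these depot differences differed between the treatments was not tested.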

How the data were processed

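RNA sequencing of total RNA gave 1 table per tissue, whose log2 values are the authors' regularized log2 expression (rlog) of each gene symbol and library, as the deposited tables are named. Tools named in the submitters' processing notes are TopHat2 2.1.1, DESeq2, bedtools and bcl2fastq 2.17.1.14, on mouse build mm9; the sources used here do not give the annotation, the handling of shared reads and strand, or what DESeq2 was used for. The depth of each library is unknown, because the tables hold no read totals, and no counting intervals could be given. Symbols turned into dates by a spreadsheet, 25 in the epididymal and 21 in the inguinal table, were left out. Groups and replicate numbers came from the titles, and the brown fat and liver tables were not used. No 2 columns held identical values.

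The 4 vehicle columns were filtered and quantile-normalized together with pandas 2.3.3 and numpy 2.4.6 in Python 3.11.15. The call was tested on simulated data with 15787 genes: 100% of 100 genes made to differ by 1.5, 100% of 100 made to differ by 3 and 0.1347% of the unchanged genes were counted. The simulated noise was drawn from the spread between libraries of a depot, which is too small, and far fewer genes differed than in the data. These shares therefore check the code and are not error rates for the depots. The deviations of same-numbered libraries correlated at -0.115 over genes. With 2 libraries per depot and the mice not stated, this cannot tell whether replicate numbers pair the depots. The gene lists and members were chosen with earlier results of these data known. Named by rule were all members of the depot marker and Hox lists, up to 6 counted members of each other list by size of difference (up to 3 by size where fewer were counted), and the 15 largest differences in each direction without predicted or clone names. Genes named outside this rule, such as Adipoq, Lep, Pparg, Fabp4, Msln, Krt5, Krt14, Trp63, Il7r, Ucp1, Ppargc1a, Tmem26 and Gjb1, were picked after their values were seen. A few genes named by that rule are not reported here. Promoter sequences are from RefSeq on GRCm38.p6, matched by symbol; Tbx15 and Wt1 had no entry used here. Alternatives covered scaling, the filter, the size of the call, each library left out, a replicate block and the sunitinib libraries.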

Additional observations from a re-analysis of the deposited data

Results flagged for a closer look

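Ank3, which encodes the membrane scaffold ankyrin-G, differed between the depots in opposite directions in the 2 treatments. In vehicle mice it had 6.45 and 6.74 in epididymal fat against 8.08 and 7.14 in inguinal fat, a difference of -1.02. In sunitinib mice it had 7.61 and 7.63 in epididymal fat against 6.87 and 5.97 in inguinal fat, a difference of 1.20. Both epididymal libraries lay below both inguinal libraries in vehicle mice and above them in sunitinib mice. Ank3 was found by a search over all 15787 genes, and the difference between the treatments was not tested.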

How the results depend on the processing

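With each of the 4 libraries left out in turn the counts ran from 1015 to 1120 genes higher and from 838 to 928 lower in epididymal fat, with 6 lists at a median of 0.5 or more each time and 2 to 4 lists at -0.5 or less. Without any normalization 592 genes were lower. Without a filter 1775 were higher and 1619 lower, with a minimum of 5 in either depot 596 and 465, and with a minimum of 3 in both depots 491 and 347, fewer genes by construction. A call at 1.5-fold counted 1786 and 1612 genes, and a call at 4-fold 494 and 406. With a minimum of 3 in both depots the median of the mammary and surface epithelium list turned from 3.46 to -0.2221, where 7 of its 18 genes were left. In the sunitinib libraries Mpeg1 (-0.06067) and Des (0.06719) had the opposite sign from vehicle; the cause was not tested. Treating same-numbered libraries as a replicate block left 1071 and 889 genes, and the crossed pairing, added after seeing the data, also gave 1071 and 889. A gene whose depots do not overlap keeps its call under either pairing, so no call could be lost and only gains were possible. The block changed no other call. Of the 131 named genes that were counted, 126 to 129 kept their call when 1 library was left out and 129 kept it under median centring. Most of these were named for the size of their difference. Of all 1960 genes counted, 1823 to 1934 kept their call when 1 library was left out. Under median centring 1680 kept it, and without normalization 1662 did. Limits: with 2 libraries per depot of unknown origin, tables normalized apart and no read totals, the differences have no test, folds of genes with few reads are unknown, and tissue carried over at dissection cannot be told apart from the depot.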
